A study of Mus musculus with 12 samples.

Results

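The liver is the main organ that breaks down amino acids and the only one with a complete urea cycle, and 55 genes of these pathways were followed in the livers of mice that ran after a meal. They encode the enzymes, and 1 carrier, that form urea, move amino groups between amino acids, and break down serine, histidine, tyrosine, tryptophan, lysine, the branched-chain amino acids, methionine, cysteine, proline, ornithine, glycine and the methylglycines. The genes were chosen by symbol from these pathways, by a rule that uses no measured value, but with earlier results of these data known. All 55 were found among the 17432 genes of the deposited table and passed the filter on low counts. RNA was sequenced from 12 livers, 6 labelled Sedentary and 6 labelled Exercise, each described as wild type. The methods describe male C57BL/6J mice, with 6 mice per group aged 8 to 10 weeks, and mice of both groups were trained to eat by day, made to run for 5 min at 10 m/min on each of 3 days beforehand, and given food for 3 hours before it was removed. The Exercise mice then ran once at 14 m/min for 3 hours while the Sedentary mice rested, and livers of both groups were collected at the end of the run. The samples therefore come from young males at 1 time point. Per the methods, these mice were fed after a night without food, and had no food during the run or the matching rest. The Sedentary mice too had run briefly on the earlier days. The labels number the libraries but do not tie them to mice, so p-values measure the spread between these libraries.

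Amino acids in excess of need lose their nitrogen by transamination and deamination, and the ammonia and aspartate formed feed the urea cycle, which runs partly in mitochondria and partly in the cytosol. The carbon skeletons enter the tricarboxylic acid cycle, ketone bodies or glucose synthesis. Many of the first enzymes of these routes are known to respond to feeding, glucagon and glucocorticoids in the liver.

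Levels are given as CPM (a gene's counts per unit of library size, with library sizes corrected by trimmed-mean, or TMM, factors), and differences as log2 fold changes of Exercise minus Sedentary with their standard error (SE) from a quasi-likelihood fit in edgeR, p-values being adjusted by the Benjamini-Hochberg method over all 12344 genes tested, with a threshold of 0.05. Total counts ran from 18745379 to 19324461 per library. Hepatocyte markers led the libraries, with albumin at 89862 to 123434 CPM (median 95890) in sedentary and 108290 to 127248 CPM (median 120886) in exercised livers. Of 7 tested hepatocyte markers, 2 were higher after exercise (28.6%) and 0 lower. Of 36 listed markers of other cells, 25 could be tested, and 2 were higher (8%) and 3 lower (12%). Among all genes tested, 21.1% were higher and 21.3% lower. The summed level of the other-cell markers ran from 370.2 to 469 CPM in sedentary and 367 to 529 CPM in exercised livers. The summed level of muscle and kidney markers was low in both groups and did not overlap between them, at 0.917 to 2.15 CPM in sedentary and 0 to 0.657 CPM in exercised livers. Too low to be tested in the fit, Acta1 and Myh4, both of muscle, were the markers on this list without overlap, and their part in the results was not tested. In whole liver, fewer cells of a type and less RNA per cell cannot be told apart.

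Sedentary replicate 5 stood apart from its group in these genes. It was the highest sedentary library for 40 of the 55 genes (72.7%), against 21.2% of all genes tested, and Sedentary replicate 2 was the lowest for 29. The summed level of the 55 genes was 43928 CPM in Sedentary replicate 5, 31384 to 39478 CPM in the other sedentary livers and 41925 to 48119 CPM in the exercised livers. Its level of other-cell markers, 370.2 CPM, was the lowest of the sedentary livers, and its part in the results was not tested. Counts of calls are therefore also given without it.

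The 55 genes were mostly abundant transcripts. On the TPM scale (which corrects for transcript length), the sedentary medians ran from 14.6 TPM for Sdsl to 5929 TPM for Ass1, and the median gene lay at percentile 96.6 of all genes in the table. The 55 genes together made up 2.68 to 3.44% of TPM in sedentary livers (median 2.89%) and 3.44 to 3.62% in exercised livers (median 3.51%). The highest sedentary library, replicate 5, came just short of the lowest exercised one. As a share of counts, with no scaling between libraries, the ranges overlapped (3.41 to 4.26% and 4.22 to 4.45%).

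Of the 55 genes, 17 were higher and 7 were lower after exercise, and 31 did not pass the threshold. This is 43.6% of the genes, and 42.4% of all genes tested passed, so as a set the pathways were called about as often as the liver transcriptome. By direction, 30.9% of the 55 were higher against 21.1% of all genes, and 12.7% were lower against 21.3%. With plain library size in place of TMM, which moved the median of all log2 fold changes from -0.0028 to -0.098, 15 of the 55 were higher and 15 lower (27.3% each), while 14.3% of all genes were higher and 30.3% lower. Without Sedentary replicate 5, 21 of the 55 were higher and 6 lower. Over all genes, that fit called 5222, of which 2670 were higher, against 5229 and 2603 with all livers. For 12 genes (21.8%) the exercised and sedentary livers did not overlap, against 22.3% of all genes. A called change of at least 2-fold was found for 1 gene, Tdo2, against 3.94% of all genes. The median log2 fold change was 0.07 and the median size of the change 0.18, against -0.0028 and 0.21 over all genes tested.

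**Figure D1:**
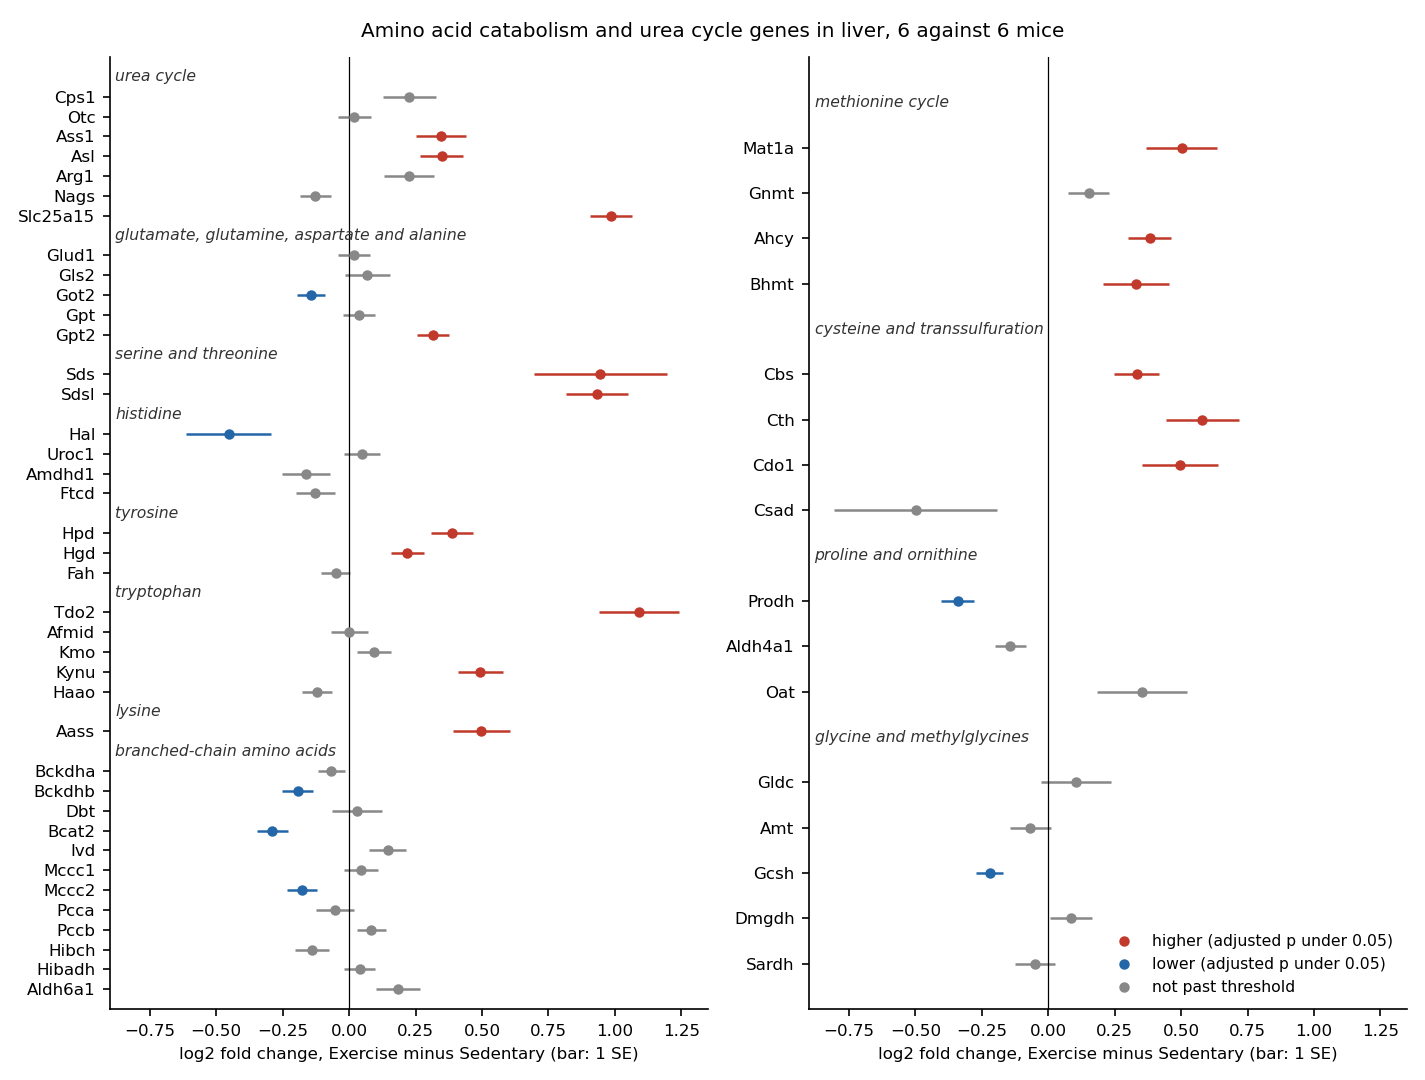
Log2 fold change (x axis, Exercise minus Sedentary, TMM scaling) of each of the 55 genes (rows, by pathway), as points with bars of 1 SE from edgeR on 6 against 6 livers. Red points passed the threshold as higher, blue points as lower and grey points did not pass. Tdo2, Slc25a15, Sds and Sdsl lie farthest to the right, between 0.93 and 1.09, and the 7 blue points lie between -0.45 and -0.14.

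By pathway, the calls fell as follows. In the urea cycle 3 of 7 were higher (42.9%) and none lower, and both serine dehydratases were higher. In the methionine cycle 3 of 4 and in cysteine breakdown and transsulfuration 3 of 4 were higher (75% each). In branched-chain amino acid breakdown none of 12 was higher and 3 were lower (25%). Among all genes tested, 21.1% were higher and 21.3% lower, and each pathway holds only 1 to 12 genes. Differences between pathways were not tested. The spread between livers was smaller after exercise for 45 of the 55 genes (81.8%), with a median coefficient of variation of 11.4% in sedentary and 6.79% in exercised livers. Over all genes tested, the medians were 11.6% and 10.2%, and 59.0% had the smaller spread after exercise. The 55 genes are not independent here, since Sedentary replicate 5 was the highest sedentary library for 40 and replicate 2 the lowest for 29. The spread without these 2 livers was not tested.

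**Figure D2:**
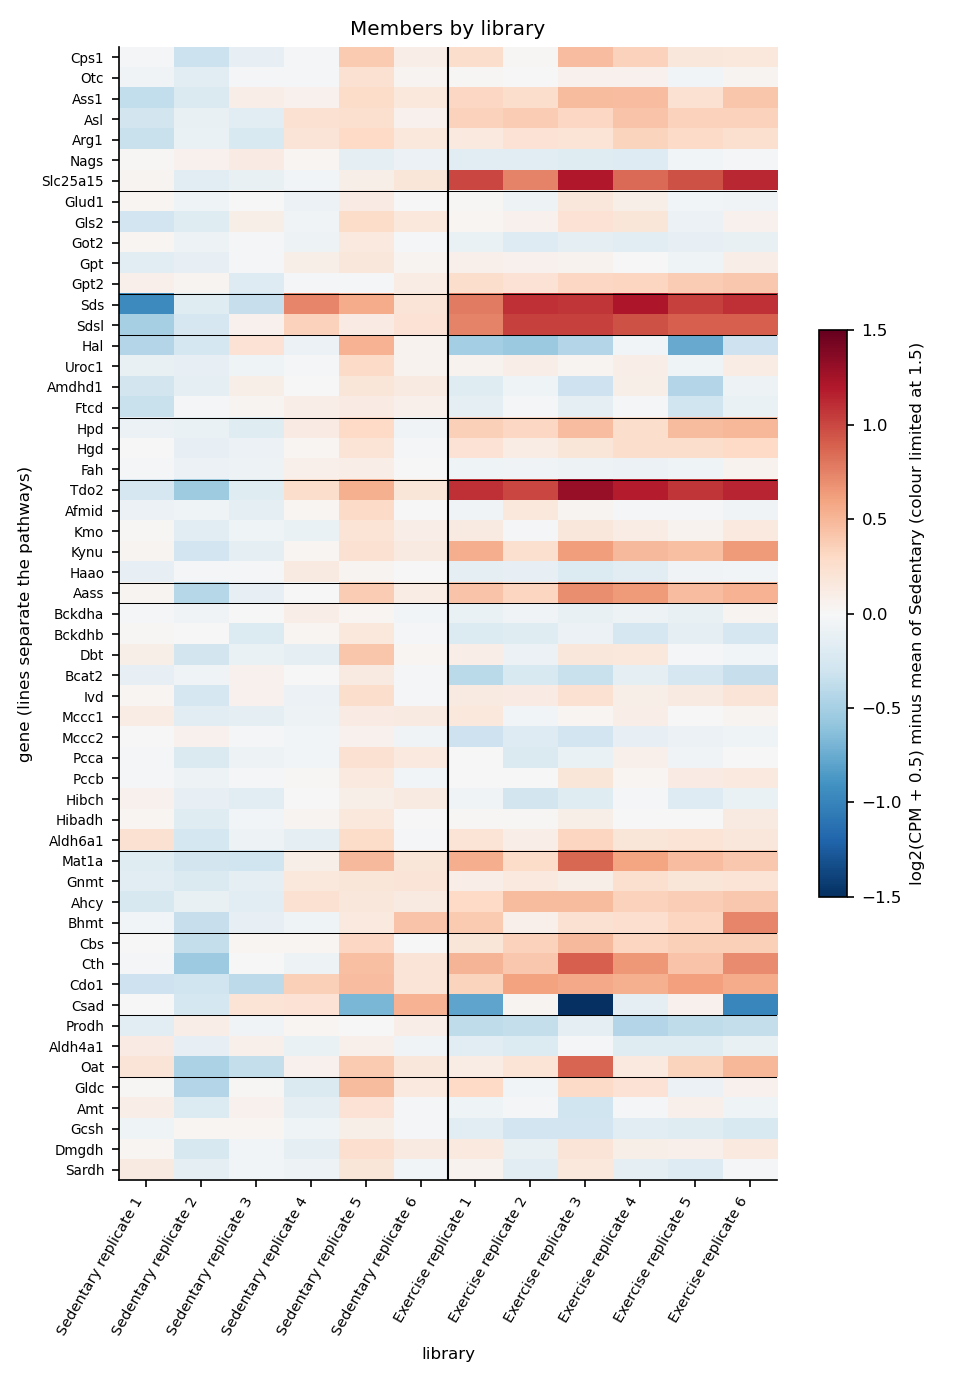
Colour shows log2(CPM + 0.5) minus the mean of the 6 sedentary livers, for each of the 55 genes (rows, with lines between pathways) in each library (columns, the vertical line separates the groups). Slc25a15, Sds, Sdsl and Tdo2 are red across the 6 exercised livers, and Sedentary replicate 5 is the reddest sedentary column, as the highest sedentary library for 40 genes.

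Sequence upstream of the start site is shown for 3 of the genes that rose, because enzymes of these routes are known to respond to cAMP and glucocorticoid signals: Slc25a15 and Tdo2, which had the largest changes, and Aass, the only risen gene with a promoter in the RefSeq table that held any of the motifs searched. RefSeq promoters (GRCm38.p6, 250 bases before to 50 after the start) were available for 43 of the 55 genes, and the 250 bases before the start are printed, 5′ to 3′ on the gene's own strand, all 3 genes lying on the minus strand. The regions are chr8:22398622-22398871 for Slc25a15, chr3:81975729-81975978 for Tdo2 and chr6:23132987-23133236 for Aass, and capitals mark TGACG, the core of the cAMP response element.
Slc25a15: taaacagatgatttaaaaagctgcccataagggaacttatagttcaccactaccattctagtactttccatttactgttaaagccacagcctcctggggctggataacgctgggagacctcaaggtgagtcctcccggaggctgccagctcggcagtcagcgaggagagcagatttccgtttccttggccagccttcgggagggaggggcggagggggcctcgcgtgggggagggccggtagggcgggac
Tdo2: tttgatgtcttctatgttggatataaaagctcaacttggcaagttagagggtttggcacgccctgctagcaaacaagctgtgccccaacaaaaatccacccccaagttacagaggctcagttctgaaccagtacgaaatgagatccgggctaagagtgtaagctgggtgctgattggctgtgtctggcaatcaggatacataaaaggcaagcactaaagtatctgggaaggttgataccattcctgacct
Aass: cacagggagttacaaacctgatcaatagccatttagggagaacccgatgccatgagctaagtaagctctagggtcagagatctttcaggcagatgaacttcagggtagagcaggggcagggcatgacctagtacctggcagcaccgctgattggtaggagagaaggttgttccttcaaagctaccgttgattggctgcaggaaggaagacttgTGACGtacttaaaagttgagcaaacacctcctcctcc

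In the whole promoter windows, searched on both strands, the core of the cAMP response element, TGACG, was found in 1 of 10 risen genes with a promoter (Aass, at base 214 of the window, 37 bases before the start), 0 of 7 fallen genes and 5 of 26 others, against 20.8% of all 32851 promoters. The C/EBP core TTGCG was found in 0 of 10 risen, 2 of 7 fallen (Gcsh and Got2) and 6 of 26 other genes, against 17.4% of all promoters. The glucocorticoid receptor core TGTTCT was found in 0 of 10 risen, 1 of 7 fallen (Bckdhb) and 4 of 26 other genes, against 18.97% of all promoters. The full cAMP response element TGACGTCA, which contains TGACG, the C/EBP palindrome TTGCGCAA, which contains TTGCG, and the HNF4 site CAAAGTCCA were found in none of the 43, against 1.79%, 0.183% and 0.475% of all promoters. A match or its lack describes these letters in these windows and says nothing of binding.

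In the urea cycle, the 2 cytosolic enzymes that join aspartate to citrulline and split the product, and the carrier that links cytosol and mitochondria, were higher after exercise, and the other 4 genes did not pass the threshold. Slc25a15 (gene ID 18408; chromosome 8, 22375550 to 22398621, minus strand, GRCm38), whose upstream sequence is given above, encodes the mitochondrial ornithine and citrulline carrier. It lay at 165 to 209.9 CPM (median 184) in sedentary livers and 309 to 424 CPM (median 364) in exercised livers. All 6 exercised livers were above all 6 sedentary ones. It rose 1.98-fold (log2 fold change 0.98, SE 0.08, adjusted p = 7.66e-08; two-sided exact permutation p = 0.00216, the smallest p that 6 against 6 allow).

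Ass1 (gene ID 11898; chromosome 2, 31470270 to 31520670, plus strand), argininosuccinate synthase, was the most abundant of the 55 genes on the TPM scale. It lay at 4425 to 6931 CPM (median 6069) in sedentary and 6706 to 7965 CPM (median 7401) in exercised livers, with 4 exercised livers above all sedentary ones. It rose 1.27-fold (log2 fold change 0.35, SE 0.10, adjusted p = 0.00716). Asl (gene ID 109900; chromosome 5, 130011258 to 130024381, minus strand), argininosuccinate lyase, lay at 625 to 892 CPM (median 741) and 932 to 1014 CPM (median 958), without overlap. It also rose 1.27-fold (log2 fold change 0.35, SE 0.08, adjusted p = 0.00215). The ratio of Ass1 to Asl had a median of 7.41 in sedentary and 7.63 in exercised livers (two-sided exact permutation p = 0.994).

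Cps1 (gene ID 227231; chromosome 1, 67122426 to 67231267, plus strand), carbamoyl phosphate synthetase of the mitochondria, which starts the cycle, lay at 2541 to 4161 CPM (median 3121) in sedentary and 3213 to 4364 CPM (median 3693) in exercised livers. The groups overlapped, Sedentary replicate 5 at 4161 CPM being above 5 of the 6 exercised livers. The difference did not pass the threshold (log2 fold change 0.23, SE 0.10, adjusted p = 0.0805), and it passed without Sedentary replicate 5, with a log2 fold change of 0.32, and without Exercise replicate 2, with 0.27. Arg1 (gene ID 11846), arginase, which releases urea, lay at 1093 to 1693 CPM (median 1410) and 1524 to 1735 CPM (median 1614). It did not pass (log2 fold change 0.22, SE 0.09, adjusted p = 0.0620), with 1 exercised liver above all sedentary ones, and it passed without Sedentary replicate 4 or 5, with limma-voom, and in the fit with replicate numbers as a block.

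Otc (gene ID 18416; chromosome X, 10252230 to 10321024, plus strand), ornithine transcarbamylase, lay at 351 to 464 CPM (median 391) in sedentary and 386 to 415 CPM (median 404) in exercised livers. The exercised livers lay inside the sedentary range, and the log2 fold change was 0.02 (SE 0.06, adjusted p = 0.842), with a sign that depended on the scaling. Nags (gene ID 217214), which makes the activator of Cps1, lay at 62.3 to 75.3 CPM (median 70.1) and 60.3 to 68.3 CPM (median 61.6). It did not pass (log2 fold change -0.13, SE 0.06, adjusted p = 0.0860), 4 exercised livers lay below all sedentary ones, and it passed as lower with library size scaling, on log2 FPKM and without Sedentary replicate 5. The plot of values by liver shows the groups apart for the carrier and overlapping for the mitochondrial enzymes Cps1 and Otc.

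**Figure D3:**
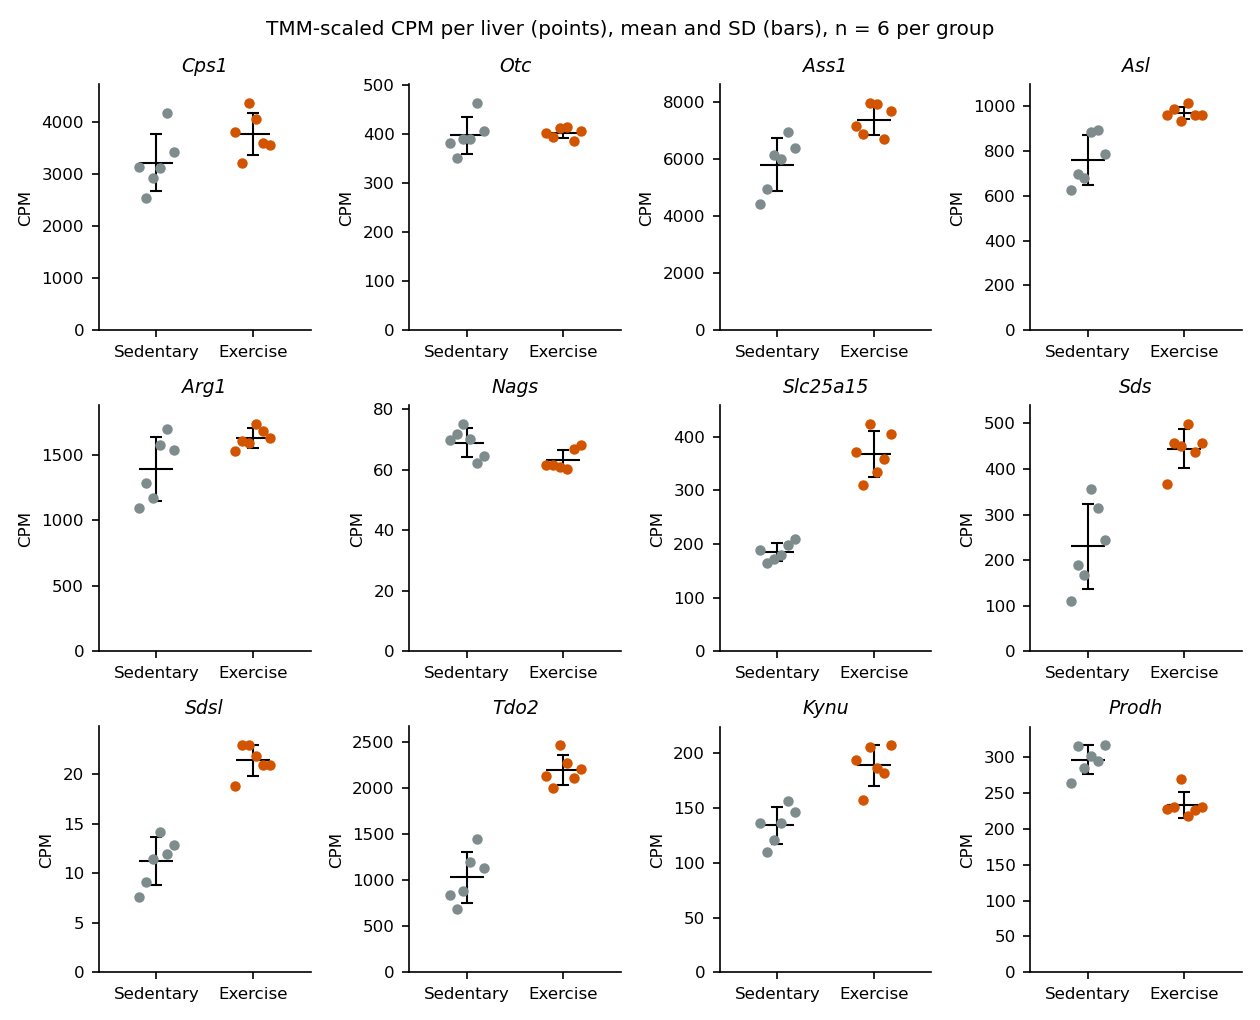
TMM-scaled CPM (y axis, each panel from 0) of the 7 urea cycle genes and of Sds, Sdsl, Tdo2, Kynu and Prodh in each liver, with grey points for Sedentary and orange points for Exercise, and bars for the mean and SD (n = 6 per group). The groups do not overlap for Asl, Slc25a15, Sds, Sdsl, Tdo2 and Kynu, and overlap for the other 6 genes.

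Among the enzymes of glutamate, aspartate, alanine and glutamine, 1 of the 2 alanine aminotransferases passed the threshold as higher. Gpt2 (gene ID 108682; chromosome 8, 85492576 to 85528902, plus strand), the mitochondrial form, lay at 276 to 342 CPM (median 319.7) in sedentary and 366 to 419 CPM (median 394) in exercised livers, without overlap, and rose 1.24-fold (log2 fold change 0.31, SE 0.06, adjusted p = 0.000405). Gpt, the cytosolic form, had a log2 fold change of 0.04 (adjusted p = 0.671). The ratio of Gpt2 to Gpt was 1.03 at the sedentary and 1.27 at the exercised median, a difference that did not pass after adjustment over the 16 ratios tested (two-sided exact permutation p = 0.0108, adjusted p = 0.0554). Got2, the mitochondrial aspartate aminotransferase, was lower by a small amount (log2 fold change -0.14, SE 0.05, adjusted p = 0.0400), without overlap between the groups, and its call was lost in 10 of the 12 fits that left out 1 liver, all but those without Sedentary replicate 2 or 4. Glud1, which releases ammonia from glutamate, and Gls2, the liver glutaminase, had log2 fold changes of 0.02 and 0.07 and did not pass.

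Both serine dehydratases nearly doubled in level. Sds (gene ID 231691; chromosome 5, 120476547 to 120483932, plus strand) turns serine into pyruvate, and Sdsl (gene ID 257635; chromosome 5, 120458193 to 120472825, minus strand) is its homologue, with 3721 bases between the divergent genes. Sds lay at 111 to 357 CPM (median 217) in sedentary and 368 to 499 CPM (median 454) in exercised livers. The 6 exercised livers were above all sedentary ones, and the sedentary livers were widely spread, with a coefficient of variation of 40.3% against 9.70%. It rose 1.93-fold (log2 fold change 0.95, SE 0.25, adjusted p = 0.0108; two-sided exact permutation p = 0.00216). Sdsl lay at 7.65 to 14.1 CPM (median 11.7) and 18.8 to 22.9 CPM (median 21.4), again without overlap. It rose 1.91-fold (log2 fold change 0.93, SE 0.12, adjusted p = 1.09e-05). On the TPM scale Sds was the higher of the pair, at 298 against 14.6 TPM in sedentary livers, and their ratio did not differ detectably between the groups (log2 ratio difference 0.12, two-sided exact permutation p = 0.476).

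Tryptophan breakdown had the largest change of the 55 genes, at its first step. Tdo2 (gene ID 56720; chromosome 3, 81958412 to 81975728, minus strand), tryptophan dioxygenase, the rate-limiting enzyme, lay at 692 to 1446 CPM (median 1008) in sedentary and 1999 to 2474 CPM (median 2177) in exercised livers. Every exercised liver was above every sedentary one, the highest of which was Sedentary replicate 5. It rose 2.13-fold (log2 fold change 1.09, SE 0.15, adjusted p = 6.86e-05; two-sided exact permutation p = 0.00216). Kynu (gene ID 70789; chromosome 2, 43555258 to 43683048, plus strand), kynureninase, further along the route, lay at 109 to 156 CPM (median 136) and 157 to 208 CPM (median 190.4) without overlap. It rose 1.41-fold (log2 fold change 0.49, SE 0.08, adjusted p = 0.000148). The 3 other members of the route, Afmid, Kmo and Haao, had log2 fold changes of 0.00, 0.09 and -0.12 and did not pass.

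In tyrosine breakdown, 2 of 3 genes rose. Hpd (gene ID 15445; chromosome 5, 123171807 to 123182723, minus strand), which makes homogentisate, lay at 2083 to 2896 CPM (median 2247) in sedentary and 2830 to 3330 CPM (median 3137) in exercised livers, 5 of which were above all sedentary ones. It rose 1.31-fold (log2 fold change 0.39, SE 0.08, adjusted p = 0.000785). Hgd, the next enzyme, rose 1.16-fold (log2 fold change 0.22, SE 0.06, adjusted p = 0.00760), a call lost with library size scaling and on log2 FPKM, and Fah, the last, had a log2 fold change of -0.05 (adjusted p = 0.487). Aass (gene ID 30956; chromosome 6, 23072173 to 23132986, minus strand), which carries out the first steps of lysine breakdown and holds the core motif shown above, lay at 196 to 346 CPM (median 269) and 331 to 429 CPM (median 374). The groups overlapped by 1 exercised liver, and it rose 1.41-fold (log2 fold change 0.50, SE 0.11, adjusted p = 0.00141).

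In histidine breakdown 1 of 4 genes was lower and none was higher. Hal (gene ID 15109; chromosome 10, 93488768 to 93516761, plus strand), histidase, which opens the route, lay at 204 to 397 CPM (median 275) in sedentary and 164 to 271 CPM (median 199) in exercised livers. The groups overlapped, with 4 exercised livers below all sedentary ones. It was 1.37-fold lower (log2 fold change -0.45, SE 0.16, adjusted p = 0.0381), and the call was lost in 8 of the 12 fits that left out 1 liver, those without Sedentary replicates 3, 5 or 6 and those without Exercise replicates 1, 2, 3, 5 or 6. Uroc1, Amdhd1 and Ftcd, which act after it, had log2 fold changes of 0.05, -0.16 and -0.13 and did not pass. Ftcd passed without Sedentary replicate 1, and both Amdhd1 and Ftcd passed with library size scaling and on log2 FPKM.

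In the methionine cycle all 4 genes but Gnmt were called higher. Mat1a (gene ID 11720; chromosome 14, 41105012 to 41124428, plus strand), which makes S-adenosylmethionine, lay at 2461 to 4245 CPM (median 2932) in sedentary and 3650 to 5469 CPM (median 4275) in exercised livers, 3 of which were above all sedentary ones. It rose 1.42-fold (log2 fold change 0.50, SE 0.13, adjusted p = 0.00734). Ahcy (gene ID 269378; chromosome 2, 155059310 to 155074497, minus strand), which splits S-adenosylhomocysteine, lay at 1343 to 1861 CPM (median 1606) and 1956 to 2220 CPM (median 2074) without overlap. It rose 1.303-fold (log2 fold change 0.38, SE 0.08, adjusted p = 0.000983). Bhmt, which returns homocysteine to methionine, was 1.26-fold higher (log2 fold change 0.33, SE 0.12, adjusted p = 0.0422), but its call was lost in 7 of the 12 fits that left out 1 liver, those without Sedentary replicates 1, 2, 3 or 4 or Exercise replicates 1, 5 or 6, and in 6 other fits, library size and upper quartile scaling among them. Gnmt, which uses up S-adenosylmethionine, had a log2 fold change of 0.15 (adjusted p = 0.134).

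Both transsulfuration enzymes rose. Cbs (gene ID 12411; chromosome 17, 31612623 to 31637233, minus strand), which joins homocysteine to serine, lay at 242 to 385 CPM (median 314) in sedentary and 354 to 437 CPM (median 396) in exercised livers, with 5 exercised livers above all sedentary ones. It rose 1.26-fold (log2 fold change 0.33, SE 0.08, adjusted p = 0.00391). Cth (gene ID 107869; chromosome 3, 157894248 to 157925081, minus strand), which releases cysteine, lay at 192 to 383 CPM (median 280.3) and 373 to 523 CPM (median 421), with 4 above. It rose 1.49-fold (log2 fold change 0.58, SE 0.14, adjusted p = 0.00420). The difference in the ratio of Cbs to Cth, with a median of 1.12 in sedentary and 0.882 in exercised livers, did not pass after adjustment (two-sided exact permutation p = 0.0173, adjusted p = 0.0554).

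Of the 2 genes that lead from cysteine to taurine, only Cdo1 passed. Cdo1 (gene ID 12583), cysteine dioxygenase, lay at 976 to 1759 CPM (median 1251) in sedentary and 1614 to 1954 CPM (median 1893) in exercised livers, 5 of which were above all sedentary ones. It rose 1.41-fold (log2 fold change 0.50, SE 0.14, adjusted p = 0.0129). Csad, the decarboxylase after it, had the largest standard error of the 55 genes, at 96.3 to 222 CPM (median 166) and 51.1 to 162 CPM (median 114). The 3 lowest of its 12 values were in Exercise replicates 3, 6 and 1, followed by Sedentary replicate 5, and it did not pass (log2 fold change -0.50, SE 0.31, adjusted p = 0.222). Whether the 2 genes' changes differed was not tested.

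In branched-chain amino acid breakdown the changes ran from a log2 fold change of -0.29 to 0.18 over its 12 genes. Bcat2 (gene ID 12036; chromosome 7, 45568967 to 45589710, plus strand), the mitochondrial aminotransferase that opens the route, which liver has little of, lay at 46.3 to 55.1 CPM (median 49.97) in sedentary and 38.0 to 45.3 CPM (median 41.0) in exercised livers. All exercised livers were below all sedentary ones. It fell, being 1.22-fold lower (log2 fold change -0.29, SE 0.06, adjusted p = 0.000633). Bckdhb, the beta chain of the first enzyme of the branched-chain ketoacid dehydrogenase, and Mccc2, a subunit of the leucine route's carboxylase, were also lower (-0.19 and -0.18 on the log2 scale, adjusted p = 0.0128 and 0.0153). Their partners Bckdha, Dbt and Mccc1 had log2 fold changes of -0.07, 0.03 and 0.04 and did not pass, and neither did Ivd, Pcca, Pccb, Hibch, Hibadh or Aldh6a1. The ratios of Bckdhb to Dbt and of Mccc1 to Mccc2 did not pass after adjustment (two-sided exact permutation p = 0.0260 and adjusted p = 0.0594 for each). Neither did the ratio of Bckdha to Bckdhb (two-sided exact permutation p = 0.0866, adjusted p = 0.126).

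Prodh and Gcsh fell in the proline and glycine routes. Prodh (gene ID 19125; chromosome 16, 18071726 to 18089283, minus strand), proline dehydrogenase, lay at 264 to 317 CPM (median 298) in sedentary and 218 to 269 CPM (median 229) in exercised livers. The groups overlapped by Exercise replicate 3, and it was 1.27-fold lower (log2 fold change -0.34, SE 0.06, adjusted p = 0.000302). Aldh4a1, the next enzyme, and Oat, which breaks down ornithine, did not pass (log2 fold changes -0.14 and 0.35, adjusted p = 0.0601 and 0.119). Gcsh (gene ID 68133; chromosome 8, 116981967 to 116993498, minus strand), the lipoyl carrier protein of the glycine cleavage system, lay at 78.0 to 86.8 CPM (median 82.0) and 66.6 to 73.4 CPM (median 70.9) without overlap. It was 1.17-fold lower (log2 fold change -0.22, SE 0.05, adjusted p = 0.00166), while Gldc and Amt of the same complex, and Dmgdh and Sardh, which demethylate glycine derivatives, had log2 fold changes of -0.07 to 0.10 and did not pass.

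A list of 61 further genes of the same pathways, written with earlier results known, was set beside the 55. Of these, 58 were in the table and 56 were tested, with 9 higher, 19 lower (28, or 50%) and 18 without overlap. In shares, 16.1% of the tested ones were higher and 33.9% lower, against 21.1% and 21.3% of all genes, and 32.1% were without overlap, against 22.3%. The higher ones included the largest changes in these pathways. Tat, tyrosine aminotransferase, the step before Hpd, lay at 1274 to 1981 CPM (median 1543) in sedentary and 5166 to 5972 CPM (median 5466) in exercised livers and rose 3.55-fold (log2 fold change 1.83, SE 0.10, adjusted p = 1.03e-09). Acmsd, which turns tryptophan carbon away from NAD synthesis, lay at 25.2 to 41.4 CPM (median 33.6) and 60.6 to 97.1 CPM (median 75.8) and rose 2.32-fold (log2 fold change 1.22, SE 0.13, adjusted p = 5.68e-06).

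Carriers and enzymes of glutamate and aspartate outside the 55 also separated the groups. Slc25a22, a mitochondrial glutamate carrier, lay at 134 to 160.0 CPM (median 148) in sedentary and 369 to 553 CPM (median 421) in exercised livers. It rose 2.98-fold (log2 fold change 1.58, SE 0.09, adjusted p = 2.5e-09). Got1, the cytosolic counterpart of Got2, was named after its values were seen, as 1 of the 5 related genes with a called change of at least 2-fold. It lay at 94.6 to 227 CPM (median 176) and 426 to 699.6 CPM (median 569) and rose 3.39-fold (log2 fold change 1.76, SE 0.22, adjusted p = 7.94e-05). Glul, glutamine synthetase, a gene of the hepatocytes around the central vein, lay at 767 to 975 CPM (median 866) and 477 to 581 CPM (median 504) and was 1.67-fold lower (log2 fold change -0.74, SE 0.07, adjusted p = 4.08e-07). The ratio of Gls2 to Glul rose from a median of 0.458 to 0.787, and it was the only 1 of the 16 ratios to pass (log2 ratio difference 0.82, two-sided exact permutation p = 0.00216, adjusted p = 0.0346). The groups did not overlap in this ratio, at 0.331 to 0.588 in sedentary and 0.664 to 0.858 in exercised livers. When 1 liver was left out, the log2 ratio difference ran from 0.73 to 0.90. Without Exercise replicate 1, 3, 5 or 6 the adjusted p was 0.0693, from an exact permutation p of 0.00433, or 2 of 462 relabellings.

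The transcripts of the 2 enzymes that set the activity of the branched-chain ketoacid dehydrogenase moved in opposite directions. The activity of the complex was not measured. Bckdk, the kinase that turns the complex off, lay at 10.3 to 14.6 CPM (median 12.9) in sedentary and 6.24 to 8.10 CPM (median 7.22) in exercised livers. It was 1.75-fold lower (log2 fold change -0.80, SE 0.10, adjusted p = 4.2e-06). Ppm1k, the phosphatase that turns it on, lay at 17.9 to 33.5 CPM (median 24.5) and 38.8 to 56.7 CPM (median 51.1). It rose 2.03-fold (log2 fold change 1.02, SE 0.14, adjusted p = 7.71e-05). Neither gene overlapped between the groups, and both kept their call in every fit. Among the other related genes that fell, Shmt1, the cytosolic serine hydroxymethyltransferase, was 1.44-fold lower (log2 fold change -0.53, SE 0.06, adjusted p = 1.22e-06) and Hoga1, of hydroxyproline breakdown, 1.48-fold lower (log2 fold change -0.57, SE 0.05, adjusted p = 2.55e-07).

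**Figure D4:**
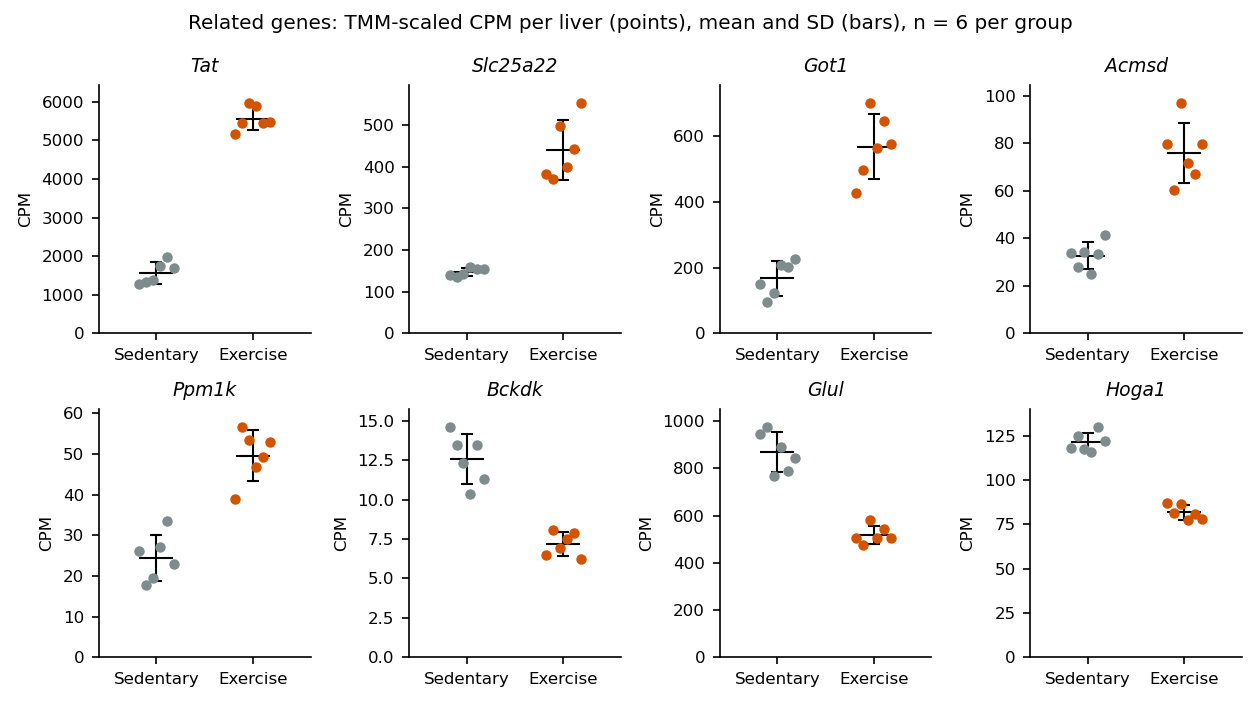
TMM-scaled CPM (y axis, each panel from 0) in each liver of 8 genes of the same pathways outside the 55, with grey points for Sedentary and orange points for Exercise, and bars for the mean and SD (n = 6 per group). No panel has overlapping groups. Tat, Slc25a22, Got1, Acmsd and Ppm1k lie higher after exercise and Bckdk, Glul and Hoga1 lower.

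Regulators known to act on these enzymes, from a list written with earlier results known, were read in the same fit. Of 14, 7 were higher and 5 lower, so 85.7% were called, against 42.4% of all genes tested. Klf15, a factor of amino acid breakdown, lay at 121 to 178 CPM (median 148) in sedentary and 315 to 353 CPM (median 338) in exercised livers and rose 2.26-fold (log2 fold change 1.17, SE 0.08, adjusted p = 8.92e-09). Cebpb and Ppargc1a were higher (1.34 and 1.88 on the log2 scale, adjusted p = 8.69e-08 and 5.09e-06), and Cebpa was lower (-0.54, adjusted p = 5.29e-05). The glucagon receptor gene Gcgr was lower (-0.15, adjusted p = 0.0263), a call lost without Sedentary replicate 3 or 4 or Exercise replicate 3, 4 or 6, and the glucocorticoid receptor gene Nr3c1 did not pass (-0.16, adjusted p = 0.135). Of genes marking hepatocytes around the portal vein, where the urea cycle is strong, 2 of 10 were higher and 2 lower (20% each). Around the central vein, 2 of 11 were higher (18.2%) and 5 lower (45.5%). Among all genes tested, 21.1% were higher and 21.3% lower. The part of zonation in the results was not tested.

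The deposited counts and FPKM values together give each gene's effective length. Of the 55 genes, 35 passed a two-sided exact permutation test (adjusted over the 7091 genes tested, of which 41.6% passed). Most of the 55 shifted by nearly the same amount, about -0.0041 on the log2 scale, so these calls carry no information on single genes. The median size of the shift was 0.0041 for the 55 and 0.0043 for all genes. The largest shift, of Haao, was -0.052, or -3.56% in length. With a lower filter, or without Sedentary replicate 2 or 4 or Exercise replicate 3, 0 of the 55 passed.

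Genes whose spans overlap may share reads where exons meet, on opposite strands only if counting ignored strand. The use of strand is not given in the sources used here. In GENCODE, 25 of the 55 overlapped a gene on the other strand and 9 one on the same strand, and 27 overlapped none. Among those that passed, Sds overlaps Plbd2, Hpd overlaps Psmd9 and Prodh overlaps Dgcr6, each on the other strand. Also on the other strand, Sds overlaps another annotated gene, and Got2, Hgd, Bckdhb, Bcat2, Ahcy and Bhmt each overlap at least 1. On their own strand Hpd overlaps Gm26745 and Cth overlaps Gm43314. Tdo2, Slc25a15, Sdsl, Ass1, Asl, Mat1a, Cbs, Kynu and Aass overlap no annotated gene.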

How the data were processed

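Liver mRNA was sequenced in 12 libraries. Per the labels, total RNA was extracted with TRI Reagent and libraries were made with a BGI mRNA kit. The submitters' processing notes name Bowtie2 2.3.4.3, RSEM 1.3.1 and mm10. The annotation and the use of strand are not given in the sources used here. The authors deposited an expected count, not scaled between libraries, and an FPKM value, scaled for length and depth, for 17432 genes, and 31.3% of the expected counts were not whole. Groups were taken from the labels. No pair of libraries was identical among 66.

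Expected counts were rounded and tested in edgeR 4.0.16 (R 4.3.3) with TMM factors (0.914 to 1.09), filterByExpr with a minimum count of 10, a robust quasi-likelihood fit with exercise as the only term, Benjamini-Hochberg adjustment over 12344 genes and a threshold of 0.05. The biological coefficient of variation, the spread between livers beyond counting error, was 11.3%. Single genes, ratios and effective lengths were tested by two-sided exact permutation over 924 relabellings on log2 values (CPM + 0.5), with adjustment over 16 ratios or 7091 genes. The deposited FPKM values were rescaled to TPM for levels. Scripts were tested on simulated data.

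The genes and lists were chosen with earlier results of these data known. Values are given for the 7 urea cycle genes, the gene with the smallest p in each other pathway and the 10 largest called changes. For related genes, the 3 smallest p in each direction and Tat, Glul, Bckdk and Ppm1k are given, and for regulators Klf15, Nr3c1, Gcgr, Cebpa, Cebpb and Ppargc1a. An item that the rule names is not reported here. Alternatives were other filters, scalings and thresholds, DESeq2 1.42.0, limma 3.58.1 (voom, and log2 FPKM with 0.1 or 1 added), a replicate block and leaving out each liver. Leaving out Exercise replicates 1 and 3 together was chosen after seeing the data. Python 3.11.15, scipy 1.17.1 and pandas 2.3.3 were used.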

Additional observations from a re-analysis of the deposited data

Results flagged for a closer look

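In 6 of the 110 sets of 6 values (55 genes in 2 groups), 1 liver lay far from the others by Dixon's test of the gap to the nearest value. Chance alone flags about 1 in 20 such sets. Ftcd was low in Sedentary replicate 1 (274 CPM, next 343 CPM, gap 0.667 of the range) and Afmid high in Sedentary replicate 5 (298 CPM, next 249 CPM, gap 0.630 of the range). Fah (694 CPM, next 648 CPM, gap 0.751 of the range) and Bckdha (199.7 CPM, next 186 CPM, gap 0.666 of the range) were both high in Exercise replicate 6. Cdo1 was low in Exercise replicate 1 (1614 CPM, next 1848 CPM, gap 0.688 of the range), and Prodh was high in Exercise replicate 3 (269 CPM, next 230.3 CPM, gap 0.759 of the range). Cdo1 and Prodh kept their calls in every fit that left out 1 liver, and the other 4 genes were not called in the main fit. Ftcd was called without Sedentary replicate 1, the liver flagged for it. Ftcd, Fah and Bckdha were also called with library size scaling and on log2 FPKM.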

How the results depend on the processing

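The number of the 55 genes called ranged from 21 to 27 when 1 liver was left out, and was 24 with the replicate numbers as a block, of which 22 were shared with the fit without it. It was 27 with DESeq2, 25 with voom and 24 with RLE factors. Of all genes, 4739 to 5222 were called when 1 liver was left out, against 5229 in the main fit. Of the 24 called, 19 kept their call in all 23 other fits at the 0.05 threshold. Got2 and Bhmt were lost in 13 fits each and Hal in 11, Hgd was lost in 3 (library size scaling and both fits on FPKM), and Mccc2 in 1, without Exercise replicates 1 and 3. The same-numbered libraries showed no clear pairing (correlations of -0.099 to 0.16, 2 of 6 over 0.1, and 1 of 6 libraries closest to its own number). The labels do not say whether they share more than a number. The block lost Got2 and Hal and gained Aldh6a1 and Arg1. At a fold of at least 1.5, 4 of the 55 genes and 7 of the related genes passed, and at an adjusted p under 0.01, 18 of the related genes. Related genes called ranged from 22 to 27 when 1 liver was left out. The log2 fold change of Otc was -0.0746 with library size scaling. It was -0.0685 and -0.0681 on log2 FPKM with 0.1 and 1 added. It was -0.0011 with upper quartile scaling and ranged from -0.0153 to 0.072 when 1 liver was left out. Of the 16 ratios, 2 passed with CPM + 2, and 0 to 7 passed when 1 liver was left out. These counts say little of stability, since a permutation over 462 relabellings gives at best p = 0.00216, or 0.0346 after adjustment for a lone ratio, and p = 0.00433 (adjusted 0.0693) with 1 more relabelling as far out. Effective length shifts passed for 0 of the 55 genes when genes down to a mean of 1 CPM were included, and for 0 to 38 when 1 liver was left out. The causes were not tested. Library size and FPKM fits, which leave out the TMM factors, called 15 higher and 15 lower, against 17 and 7, with 14.3% of all genes higher and 30.3% lower under library size. With 6 livers against 6, the smallest permutation p is 0.00216. The smallest called change was that of Got2, 1.10-fold.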
